A study of Rattus norvegicus with 20 samples.

Results

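Small RNA of the adBNST, the anterodorsal division of the bed nucleus of stria terminalis, which belongs to the extended amygdala and is known for its role in sustained anxiety-like states, was compared between 5 socially isolated (SI) and 5 group-housed (GH) male rats, 10 of the 20 rats sequenced. The males were chosen by the M that ends the animal code in the sample title. All were Sprague-Dawley rats that were weaned on postnatal day 21, held for 6 weeks with 1 rat (SI) or 3 same-sex littermates (GH) in a cage, tested in the elevated plus maze at 9 weeks of age, and then killed for tissue punches of frozen brain. The labels do not say whether any of the 5 GH males shared a cage or a litter. The other 10 rats were females under the same 2 housing conditions, and they entered the filters, the scaling, the estimate of the spread, and the test of the difference between the sexes. An SI male (title I17M) has a file name that ends in F, and the SI female of the same number has the reverse. Both were placed by their labels, and results that rest on this are given also with the 2 libraries exchanged.

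A miRNA is a short RNA of about the length of the sequences printed here, cut by Drosha and Dicer from a hairpin precursor whose 2 arms give a 5p and a 3p mature form. The form that is loaded into an Argonaute protein binds messenger RNAs mainly through its seed, bases 2 to 8, and lowers their stability and translation, so that miRNAs with 1 seed form a family with shared targets. IsomiRs are forms of 1 miRNA with shifted ends or with bases, mostly A or U, added at the 3' end without a template. A shift at the 5' end changes the seed, and one at the 3' end leaves it in place.

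The mature sequences of the 20 miRNAs that differed between SI and GH males are shown 5' to 3' with the seed in capitals, since the seed sets which transcripts a miRNA can bind. The first 7 were higher in SI males and the last 13 were lower. The 20 seeds were all different. The letters are those of the reference form in the deposited files, and the positions, for the 17 with a single identical entry in the RefSeq table, are those of the rat build GRCr8.
miR-34a-5p (chr5:165815971-165815992, +): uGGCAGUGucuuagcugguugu
miR-221-3p (chrX:6023246-6023268, +): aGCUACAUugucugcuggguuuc
miR-338-5p (chr10:105796381-105796402, -): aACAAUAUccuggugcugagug
miR-378a-3p (chr18:57128925-57128945, -): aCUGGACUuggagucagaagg
miR-25-3p (chr12:22156652-22156673, -): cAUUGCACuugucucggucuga
miR-434-3p (chr6:134330451-134330472, +): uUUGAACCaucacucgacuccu
miR-30c-5p: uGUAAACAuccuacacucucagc
miR-22-3p (chr10:60805387-60805408, +): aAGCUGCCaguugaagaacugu
miR-423-3p: aGCUCGGUcugaggccccucagu
miR-143-3p (chr18:57371373-57371394, -): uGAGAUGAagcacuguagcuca
miR-135b-5p (chr13:46191033-46191055, +): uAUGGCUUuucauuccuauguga
miR-181c-5p (chr19:40888314-40888335, +): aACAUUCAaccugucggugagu
miR-873-5p (chr5:56153150-56153170, -): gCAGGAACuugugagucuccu
miR-666-3p (chr6:134552323-134552345, +): gGCUGCAGcgugaucgccugcuc
miR-300-3p (chr6:134559968-134559989, +): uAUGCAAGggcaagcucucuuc
miR-411-5p (chr6:134544604-134544624, +): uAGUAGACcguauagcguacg
miR-341 (chr6:134347871-134347891, +): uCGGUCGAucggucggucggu
miR-136-3p (chr6:134331383-134331404, +): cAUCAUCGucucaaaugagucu
miR-127-5p: cUGAAGCUcagagggcucugauu
miR-434-5p (chr6:134330413-134330435, +): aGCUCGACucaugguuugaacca

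The male libraries held between 3428930 (G19M) and 11383055 (I15M) reads assigned to miRNAs, with 3428930 to 8244720 in the GH males and 4661886 to 11383055 in the SI males. When every library was thinned to 3428930 reads, 454 to 515 miRNAs were listed in the GH males and 401 to 477 in the SI males, with the fewest in I17M. The 14 brain-enriched and synaptic miRNAs that were looked up were read in every male library, with miR-9a-5p at 8.18% ± 1.20 of reads in GH and 7.62% ± 1.51 in SI males (mean ± SD, n = 5), the highest of any miRNA in the GH males. They mark brain tissue and not the adBNST as such. The choroid plexus miRNA miR-204-5p stood at 18185 CPM (reads per 1000000, scaled by TMM) in I20M and between 837 and 2439 CPM in the other 9 males. I17M and I20M thus stood apart from the other SI males, and the calls are given below also without them.

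Of 500 miRNAs tested, 20 differed between SI and GH males at an adjusted p under 0.05, which is 4.0% of those tested. SI males had higher levels of 7 (1.40%) and lower levels of 13 (2.60%). This balance changed with the processing, to 22 higher and 23 lower with a GC offset, 6 and 5 with the I17 libraries exchanged, and 8 and 6 without I17M. The rises ranged from 1.56-fold to 2.88-fold, and the lowest level relative to GH was 0.293-fold. The 5 SI males lay entirely above or below the 5 GH males for each of the 20, and the groups did not overlap for 69 of the 500 miRNAs, or 13.8%. At an unadjusted p under 0.05 there were 115. The plot of level against difference shows the called miRNAs at the middle and upper levels, and the lowest number of reads behind any of them in a male library was 120. Because each punch is bulk tissue, fewer cells of a type and less of a miRNA per cell cannot be told apart.

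**Figure D1:**
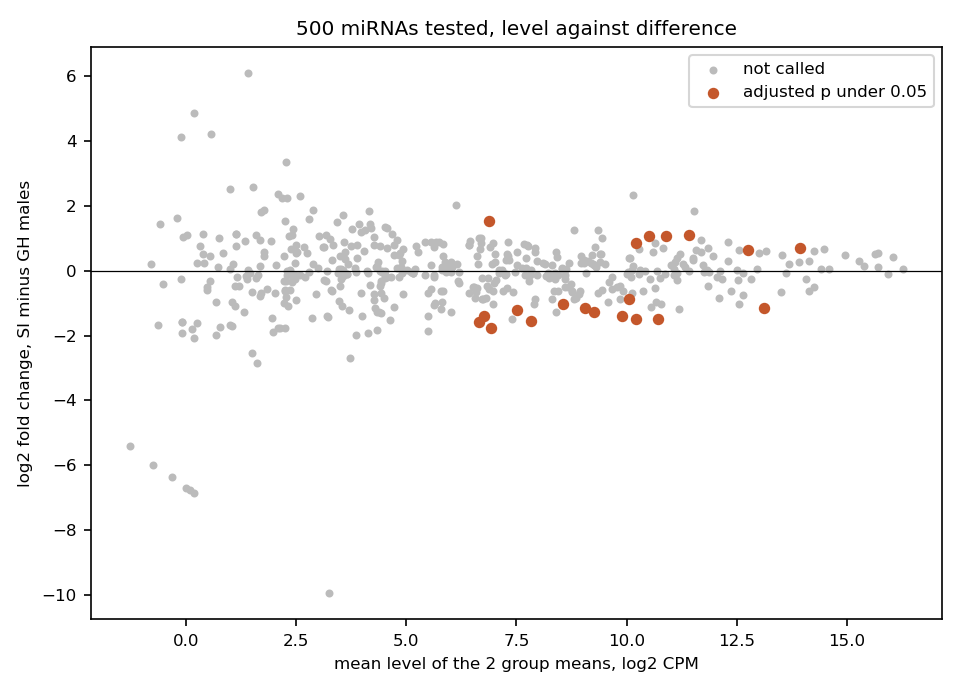
The mean level of each of the 500 miRNAs tested (log2 CPM, horizontal) is plotted against its log2 fold change, SI minus GH males (vertical), with the 20 called miRNAs in orange. Called differences lie between -1.77 and 1.52 on the log2 scale, and the wider scatter at low levels holds no call.

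How far the calls rest on single rats differed between miRNAs. When each of the 10 males was left out in turn, 7 miRNAs were called in every one of the 10 fits, namely miR-22-3p, miR-34a-5p, miR-300-3p, miR-338-5p, miR-378a-3p, miR-423-3p, and miR-666-3p. The other 13 lost the call in at least 1 fit, with adjusted p up to 0.14, and kept their direction in all. The number called was 7 without I15M, 8 without G18M, 9 without I20M, 10 without G16M, and 13 without G19M. Without I17M it was 14, and 9 of the 20 were lost, and without I20M 11 of the 20 were lost. Leaving out 1 female, which changes the scaling and the estimate of the spread, gave 73 without I16F and 17 to 25 otherwise. With the 2 I17 libraries exchanged 11 miRNAs were called, 10 of them among the 20. Of the 7 named above, miR-423-3p and miR-666-3p lost the call there. It was also lost for miR-30c-5p, miR-127-5p, miR-135b-5p, miR-143-3p, miR-181c-5p, miR-411-5p, miR-434-3p, and miR-434-5p. A fit of the 10 males alone, which leaves the spread among females out of the error, called 89, and the 20 were among them.

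Among the miRNAs that rose in SI males, miR-34a-5p, a miRNA that the p53 transcription factor induces, had the largest change. Its level was 53.1, 47.9, 30.7, 104, and 65.5 CPM in the 5 GH males and 166, 173, 153, 153, and 221.8 CPM in the 5 SI males. The lowest SI male lay above the highest GH male, G20M. This gave a log2 fold change of 1.52 ± 0.31 (SE), adjusted p = 0.007. The other miRNAs of the miR-34 and miR-449 family that passed the filter did not pass the test. miR-34b-3p had 1.26 ± 0.38 (SE), adjusted p = 0.06, miR-34c-5p, which has the same seed, had -0.49 ± 0.45 (SE), adjusted p = 0.59, and miR-34c-3p had 0.66 ± 0.45 (SE), adjusted p = 0.43.

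miR-378a-3p lies in an intron of Ppargc1b, a coactivator of mitochondrial genes. Its level was 845, 900.2, 821, 1104, and 1051 CPM in the 5 GH males and 1982, 1413, 1597, 1683, and 3118 CPM in the 5 SI males. All SI males exceeded all GH males, and I20M was the highest. The difference on the log2 scale was 1.05 ± 0.21 (SE), adjusted p = 0.007, and without I20M it was 0.75, adjusted p = 0.032. miR-338-5p comes from a hairpin within Aatk that is known for its role in oligodendrocyte differentiation. Its level was 1153, 1130, 1094, 1289.8, and 1496 CPM in the 5 GH males and 2934, 2553, 2577, 1994, and 2973 CPM in the 5 SI males. The SI range began at I17M and was still above the whole GH range. The log2 fold change was 1.08 ± 0.23 (SE), adjusted p = 0.011. The partner arm miR-338-3p, the better known regulator of myelination, was read less and had -1.18 ± 0.68 (SE), adjusted p = 0.30.

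miR-221-3p, which with miR-222-3p forms a seed family known to target the cell cycle inhibitor p27, was read at 1203, 1550, 1566, 2571, and 1824 CPM in the 5 GH males and 4103, 5150.1, 3456, 2855, and 2944 CPM in the 5 SI males. G20M came closest to the SI males. The difference on the log2 scale was 1.09 ± 0.25 (SE), adjusted p = 0.013, and for miR-222-3p it was 0.68 ± 0.22 (SE), adjusted p = 0.083. miR-25-3p of the miR-106b-25 cluster stood at 848 ± 114 CPM in GH and 1538 ± 323 CPM in SI males (mean ± SD, n = 5), a log2 fold change of 0.86 ± 0.19 (SE), adjusted p = 0.011. miR-92b-3p and miR-92a-3p, which share its seed, had 0.67 ± 0.29 (SE), adjusted p = 0.16 and 0.38 ± 0.20 (SE), adjusted p = 0.26. miR-221-3p lost its call without I15M, G16M, or G18M and miR-25-3p without I15M or I20M, with adjusted p up to 0.055.

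miR-30c-5p was, after miR-434-3p, the most abundant of the miRNAs that rose. It was read at 5679, 4642, 5095, 6011, and 5464 CPM in the 5 GH males and 8929.6, 9519.7, 8675, 6777, and 7956 CPM in the 5 SI males, a log2 fold change of 0.64 ± 0.15 (SE), adjusted p = 0.015. Members of its seed family, which is widely expressed in the brain, did not share one direction. miR-30b-5p had 0.75 ± 0.27 (SE), adjusted p = 0.097, miR-30e-5p had -1.19 ± 0.35 (SE), adjusted p = 0.053, miR-30a-5p had -0.67 ± 0.29 (SE), adjusted p = 0.16, and miR-30d-5p had -0.25 ± 0.25 (SE), adjusted p = 0.63. miR-30e-5p was read at 3233 CPM on average in GH and 1413 CPM in SI males. The call of miR-30c-5p was lost without G18M, G19M, I15M, or I20M, with adjusted p up to 0.059.

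**Figure D2:**
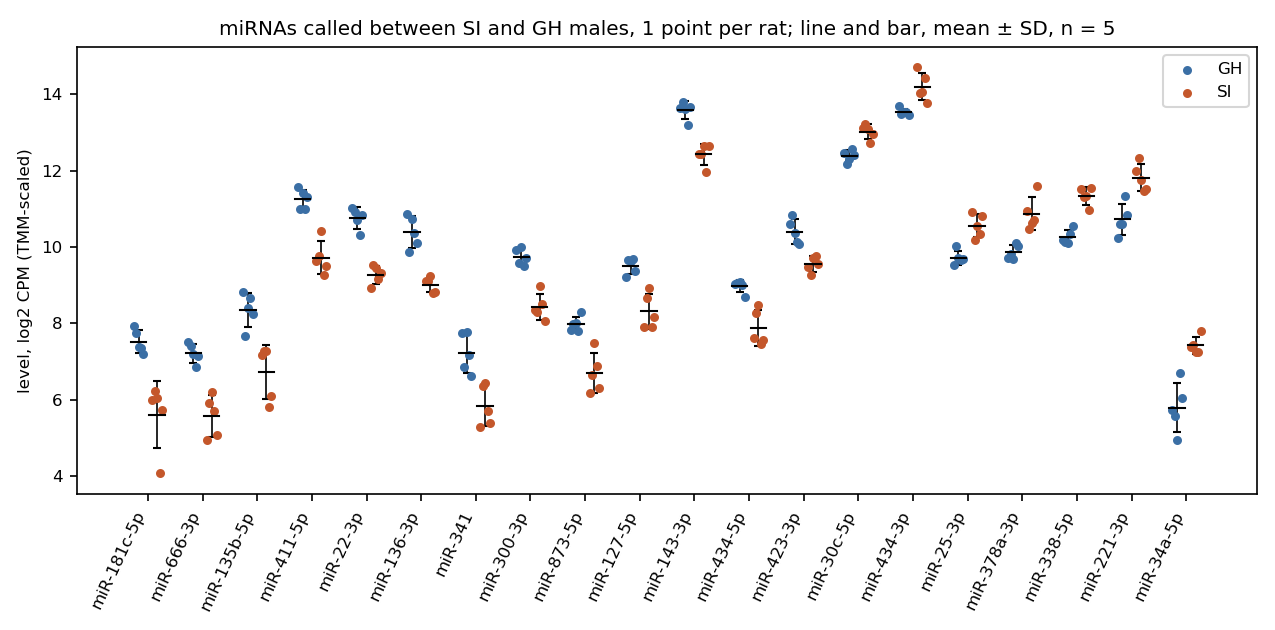
Level of each of the 20 called miRNAs (log2 of TMM-scaled CPM, vertical) in the 5 GH males (blue) and the 5 SI males (orange), with 1 point per rat and the mean ± SD as line and bar, ordered from the largest fall to the largest rise. The groups do not overlap for any of them, and I17M is the lowest point for miR-181c-5p at 16.8 CPM.

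The miRNA with the lowest p in the comparison was miR-22-3p, a brain-expressed miRNA with known targets in histone deacetylase and survival pathways. It was read at 2092, 1943, 1662, 1268, and 1825 CPM in the 5 GH males and 487, 737, 699, 575, and 634 CPM in the 5 SI males. The highest SI male, I19M, was well under the lowest GH male, G20M. This gave a log2 fold change of -1.49 ± 0.28 (SE), adjusted p = 0.007. miR-423-3p, whose hairpin gives both arms in appreciable amounts, was read at 1552, 1847, 1331, 1115, and 1079 CPM in the 5 GH males and 711, 613, 844, 874, and 755 CPM in the 5 SI males. The gap between the groups was narrower here, with I17M nearest to G21M. The log2 fold change was -0.87 ± 0.19 (SE), adjusted p = 0.011.

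miR-143-3p is a miRNA of smooth muscle and mural cells and was the most abundant of those that fell. It was read at 12788, 14106, 12565, 9306, and 13067 CPM in the 5 GH males and 5552, 5571, 6400.3, 3964, and 6425 CPM in the 5 SI males, a log2 fold change of -1.15 ± 0.33 (SE), adjusted p = 0.045. The call was lost in each of the 10 fits without 1 male, with adjusted p up to 0.11. The 6 miRNAs taken as markers of endothelium and mural cells, which include it, summed to 10546 to 15257 CPM in the GH males and 4349 to 7279.7 CPM in the SI males, without overlap. Most of each sum was miR-143-3p itself, at 12366 CPM on average in GH and 5582.5 CPM in SI males, so that the sum largely repeats its fall. Of the others, the endothelial miR-126a-3p had -0.96 ± 0.40 (SE), adjusted p = 0.13 and miR-145-5p, the cluster partner of miR-143, had -0.23 ± 0.39 (SE), adjusted p = 0.84. Whether the amount of vessel in the punches had a part in the fall of miR-143-3p was not tested.

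miR-135b-5p, of a family with known targets in serotonergic signalling, was read at 203 to 454 CPM in the GH males and 56.0 to 156 CPM in the SI males, a log2 fold change of -1.56 ± 0.40 (SE), adjusted p = 0.023. Its family member miR-135a-5p had -0.58 ± 0.37 (SE), adjusted p = 0.37. miR-181c-5p belongs to a family abundant in brain and was the miRNA with the largest fall. It was read at 246, 214, 165, 163, and 148 CPM in the 5 GH males and 63.4, 75.5, 66.3, 16.8, and 52.8 CPM in the 5 SI males. I17M was far below the other SI males, which lay between 52.8 and 75.5 CPM and still under every GH male. This gave a log2 fold change of -1.77 ± 0.45 (SE), adjusted p = 0.023, and -1.54 with adjusted p = 0.072 without I17M. The more abundant miR-181a-5p and miR-181b-5p had -0.26 ± 0.19 (SE), adjusted p = 0.46 and 0.11 ± 0.19 (SE), adjusted p = 0.84. miR-873-5p was read at 222.1 to 312 CPM in the GH males and 72.7 to 179 CPM in the SI males, a log2 fold change of -1.22 ± 0.33 (SE), adjusted p = 0.039. miR-135b-5p lost its call without G16M, G18M, G20M, I15M, I17M, or I20M, miR-181c-5p without G16M, G18M, G19M, I15M, I17M, or I20M, and miR-873-5p in every fit without 1 male except that without I22M, with adjusted p up to 0.10.

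The remaining 8 of the 20, 7 of them lower in SI males, come from 1 stretch of chromosome 6. This domain is imprinted, is transcribed from the maternal chromosome, and holds a large group of miRNAs that are mostly brain-expressed. In GRCr8 the 46 hairpins with a RefSeq position extended over chr6:134298084-134579838. They fall into the miR-127, miR-433, and miR-770 group upstream and the miR-379/410 group downstream. Of 82 miRNAs of the domain tested, 8 were called (9.76%), against 12 of 418 (2.87%) elsewhere. Differences below 0 were found for 50 of the 82 (61.0%) and for 205 of the 418 (49.0%). The median log2 fold change was -0.30 in the domain and 0.01 elsewhere.

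In the upstream group, miR-341 was read at 98.3 to 218 CPM in the GH males and 38.8 to 86.5 CPM in the SI males, a log2 fold change of -1.39 ± 0.32 (SE), adjusted p = 0.013. miR-136-3p was read at 930.1 to 1852 CPM in the GH males and 445 to 609 CPM in the SI males, a log2 fold change of -1.40 ± 0.36 (SE), adjusted p = 0.023. The other arm of that hairpin, miR-136-5p, had -1.27 ± 0.69 (SE), adjusted p = 0.27. Its neighbours miR-127 and miR-434, described with the arm ratios, changed on the 5p side in the same direction. Of 24 miRNAs of the upstream group tested, 1 was called higher and 4 lower (20.8% called, against 4.0% of all 500 miRNAs). miR-341 lost its call without G16M, G18M, or I15M, and miR-136-3p without G16M, G18M, I15M, I17M, or I20M.

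In the downstream group, miR-666-3p was read at 181, 168, 146, 116, and 141 CPM in the 5 GH males and 30.6, 60.5, 73.6, 52.5, and 33.6 CPM in the 5 SI males. The highest SI male, I22M, was below the lowest GH male. The difference on the log2 scale was -1.59 ± 0.32 (SE), adjusted p = 0.007. miR-300-3p, which lies next to the miR-376 hairpins, was read at 964, 765, 1029.9, 729.6, and 842 CPM in the 5 GH males and 328, 315, 506, 362, and 266 CPM in the 5 SI males. I22M was again the SI male nearest to the GH range. The log2 fold change was -1.29 ± 0.28 (SE), adjusted p = 0.011.

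miR-411-5p, the most abundant of the 3, was read at 3018, 2027, 2704, 2037, and 2543 CPM in the 5 GH males and 788, 874, 1376, 615, and 727 CPM in the 5 SI males, a log2 fold change of -1.49 ± 0.39 (SE), adjusted p = 0.023. Its call was lost without G16M, G18M, I15M, I17M, I19M, or I20M, with adjusted p up to 0.074. Of 58 miRNAs of the downstream group tested, 3 were called, all lower. This is 5.17%, near the 4.0% of all 500 miRNAs. At an unadjusted p under 0.05, 16 of the 58 were lower and 3 higher, with 115 of all 500 past that threshold. The median of the 58 was -0.39, with -0.01 over all 500 miRNAs. Members above 0 were found among them, such as miR-134-5p, a miRNA known to restrain dendritic spine size, with 0.67 ± 0.22 (SE), adjusted p = 0.087.

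**Figure D3:**
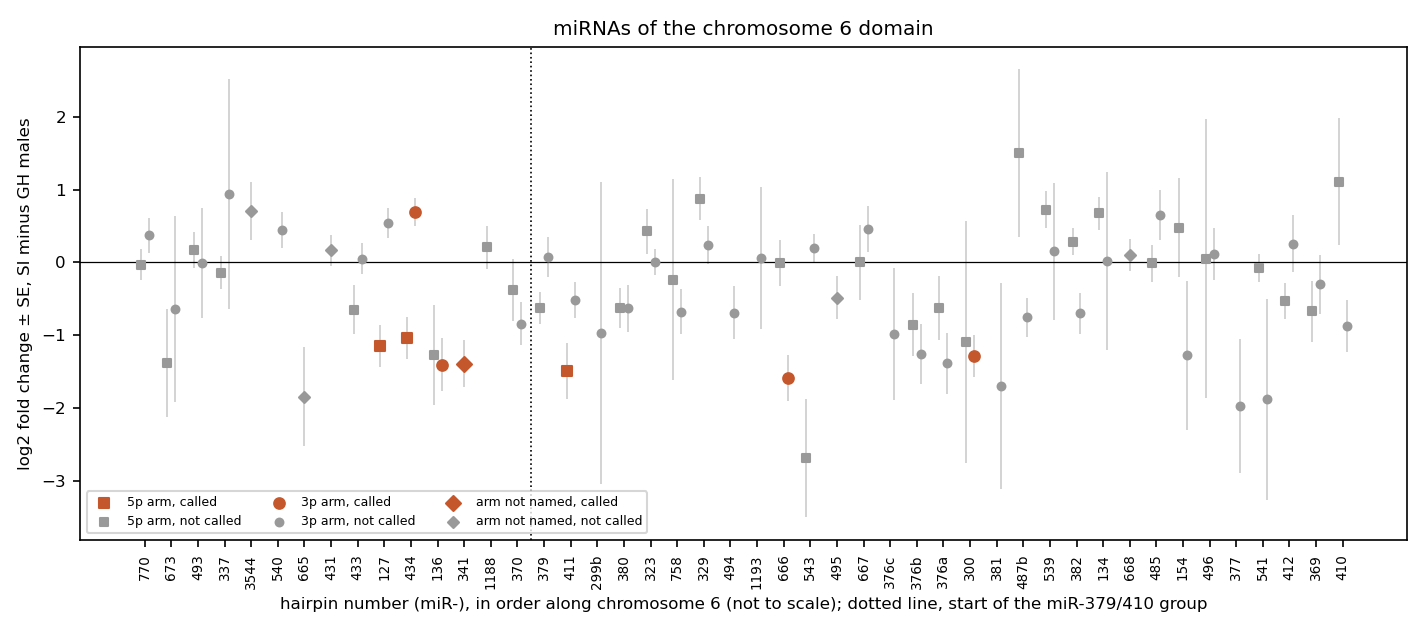
Log2 fold change ± SE, SI minus GH males (vertical), of the 78 miRNAs of the domain with a RefSeq hairpin position, in their order along chromosome 6 (horizontal, not to scale), with squares for 5p arms, circles for 3p arms, and called miRNAs in orange. The 7 called falls lie at miR-127, miR-434, miR-136, miR-341, miR-411, miR-666, and miR-300, and the one called rise is the 3p arm of miR-434.

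The 2 arms of a hairpin are made in equal numbers, and what accumulates depends on which is kept. The ratio of 5p to 3p reads could be tested for 158 hairpins, and it differed between SI and GH males for 3 of them (1.90%), all lower in SI males and all in the chromosome 6 domain. Their hairpins are shown from RefSeq with the 5p and then the 3p mature form in capitals, since the change lies between these 2 stretches of 1 transcript.
miR-127 (chr6:134328454-134328550, +): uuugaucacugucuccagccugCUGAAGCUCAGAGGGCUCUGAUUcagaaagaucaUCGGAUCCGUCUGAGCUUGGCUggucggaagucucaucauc
miR-434 (chr6:134330402-134330482, +): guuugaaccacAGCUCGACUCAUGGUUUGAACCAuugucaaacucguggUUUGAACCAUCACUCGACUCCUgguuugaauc
miR-543 (chr6:134552405-134552484, +): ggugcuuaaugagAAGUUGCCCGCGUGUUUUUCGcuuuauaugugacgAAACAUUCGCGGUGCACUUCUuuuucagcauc

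For miR-434 the arms moved in opposite directions, and each passed the test on its own. The 5p arm was read at 527, 534, 545, 514, and 411 CPM in the GH males and 195, 309.9, 359.5, 178, and 189 CPM in the SI males, a log2 fold change of -1.04 ± 0.29 (SE), adjusted p = 0.042. The 3p arm, more abundant in every rat, was read at 13148, 11451, 11901, 11764, and 11336 CPM in the GH males and 26707, 16751, 17155, 21883, and 14068 CPM in the SI males, a log2 fold change of 0.70 ± 0.19 (SE), adjusted p = 0.039. The 5p arm was thus lower in all SI males and the 3p arm higher. The log2 ratio of the 5p to the 3p arm was -4.56 ± 0.151 in GH and -6.32 ± 0.684 in SI males (mean ± SD, n = 5), a difference of -1.75 ± 0.40 (SE) in the log2 ratio, limma adjusted p = 0.039. The calls of the single arms are near the threshold, each being kept only without I19M or I22M among the 10 fits without 1 male, with adjusted p up to 0.14 for the 3p arm.

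For miR-127 the 5p arm fell and was read at 598 to 817 CPM in the GH males and 239 to 489 CPM in the SI males, a log2 fold change of -1.15 ± 0.29 (SE), adjusted p = 0.023, and its call was lost without G18M, G19M, G20M, I15M, I17M, or I20M. The 3p arm was read at 6018, 7733, 7235, 6328, and 6420.1 CPM in the GH males and 10210, 10730, 9649, 11600, and 6846 CPM in the SI males, with 0.54 and adjusted p = 0.11. I20M was the one SI male inside the GH range of the 3p arm. The difference was -1.72 ± 0.44 (SE) in the log2 ratio, limma adjusted p = 0.048. For miR-543 the 5p arm had few reads, 77, 157, 140, 105, and 89 in the GH males and 37, 38, 31, 0, and 15 in the SI males, and sequences read once are not listed. The 3p arm was read at 1686 to 3097 CPM across the 10 males. The ratio differed by -3.44 ± 0.82 (SE) in the log2 ratio, limma adjusted p = 0.039.

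The arm calls rest on few libraries. The number called was 2 without I19M, 3 without I22M, and 0 in each of the other 8 fits without 1 male (G16M, G18M, G19M, G20M, G21M, I15M, I17M, or I20M), and none was called with the I17 libraries exchanged. The balance of higher and lower calls changed with the processing, while the 3 ratios named above kept their direction. Fitting the 10 males alone called 16, 8 higher and 8 lower, with miR-127 and miR-434 among them and miR-543 at an adjusted p of 0.053 (limma). A pseudocount of 5 called 7, 3 higher and 4 lower. Of the 16 hairpins with a called arm and both arms tested, 7 had arms in opposite directions, and over all 158 hairpins it was 78, or 49.4%. The hairpins next in p were miR-873, where the 5p arm fell, and miR-666, where the 3p arm fell and the ratio was higher by 1.64 ± 0.46 (SE), limma adjusted p = 0.071. In the domain 18 of 34 ratios were lower in SI males, and elsewhere 68 of 124.

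**Figure D4:**
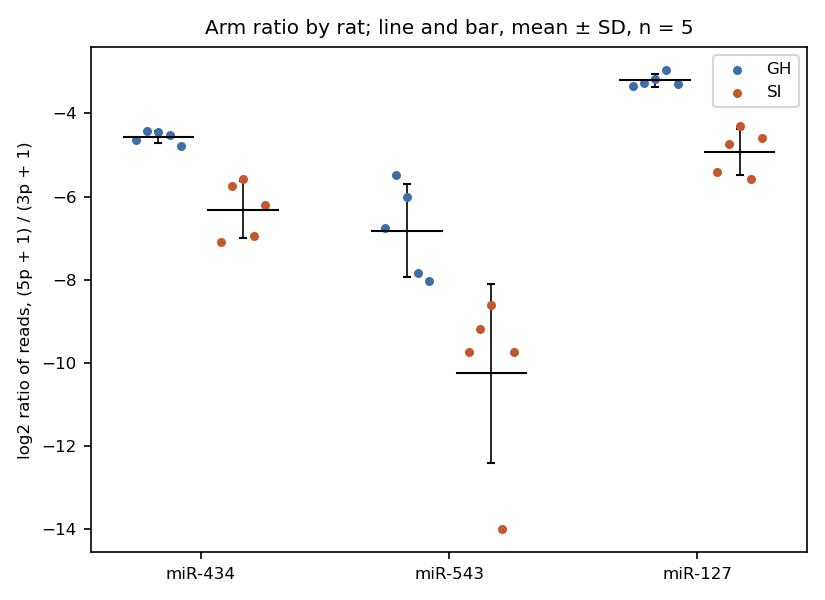
Log2 ratio of 5p to 3p reads, with 1 added to each (vertical), for the 3 hairpins called, with 1 point per rat and the mean ± SD as line and bar. The SI males (orange) lie below all GH males (blue) for each hairpin, and the point at -14.02 is I17M, in which the 5p arm of miR-543 was listed with 0 reads.

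Summed by seed, 403 families were tested and 16 differed (3.97%), 5 higher and 11 lower in SI males. The numbers were 17 higher and 12 lower with at least 10 counts in every library, and 13 and 12 without I22M. In 14 the family had a single miRNA tested, so that its change was that of the miRNA already described. The families that hold miR-34a-5p, miR-25-3p, miR-30c-5p, miR-135b-5p, and miR-181c-5p beside other members were not called. The other 2 had several members that moved the same way. The family of miR-221-3p and miR-222-3p had a log2 fold change of 0.82 ± 0.22 (SE), adjusted p = 0.034, from 4616 to 8144 CPM on average. The family with the seed UAUACAA is made of passenger strands of let-7 and of miR-98-3p. Its members let-7a-1-3p, let-7b-3p, let-7c-2-3p, let-7f-1-3p, and miR-98-3p all lay above 0 and none passed the test alone. Together they rose from 249 to 434 CPM on average, a log2 fold change of 0.80 ± 0.22 (SE), adjusted p = 0.039. Leaving out 1 male gave 4 families without I15M, 6 without G18M, 9 without G19M or I17M, 10 without G16M, 25 without I22M, and 12 or 13 otherwise.

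The let-7 guide strands, which mark differentiated cells and are among the most abundant miRNAs of the brain, were read at 216590 to 303190 CPM together with miR-98-5p in the GH males and at 270130 to 371740 CPM in the SI males. The 2 ranges overlap. None of the 9 was called, all 9 differences were above 0, and their median was 0.47. The largest were let-7d-5p with 0.61 ± 0.22 (SE), adjusted p = 0.10 and miR-98-5p with 0.59 ± 0.24 (SE), adjusted p = 0.13. The miR-29 family, known to act on collagens and DNA methyltransferases, lay the other way. Its members summed to 7662 to 9395 CPM in the GH males and 3178 to 5085 CPM in the SI males, without overlap. Most of this was miR-29a-3p, at 8021 CPM on average in GH and 3920 CPM in SI males. None of the 5 tested was called, miR-29a-3p having -1.03 ± 0.34 (SE), adjusted p = 0.087 and miR-29c-3p -1.50 ± 0.68 (SE), adjusted p = 0.19.

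Other families had no call as well. The miR-23/27/24 clusters summed to 11894 to 12693 CPM in the GH males and 7973 to 10777 CPM in the SI males, without overlap, and miR-24-3p had -1.02 ± 0.33 (SE), adjusted p = 0.083. The miR-15/16 family summed to 923 to 1224 CPM in the GH males and 255 to 842 CPM in the SI males, without overlap and with I17M the lowest. The activity-regulated miR-132 and miR-212 cluster had 4 of 4 differences below 0, from -0.51 to -0.01, with ranges that overlap. In the miR-7 family 4 of 4 were above 0, with miR-7b at 0.49 ± 0.16 (SE), adjusted p = 0.083. The miR-99/100 and miR-125 clusters had a median of 0.05 over 10 miRNAs. In the miR-148 and miR-152 family miR-148b-3p had 0.93 ± 0.35 (SE), adjusted p = 0.11 and miR-148a-3p -0.64 ± 0.32 (SE), adjusted p = 0.23. None of these lists had a called member, against 4.0% of all miRNAs.

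Over all 500 miRNAs 4.0% were called. The lists with 1 called member were small, so that a single call was 7.14% to 25.0% of the members tested. They were the miR-34 and miR-449 family (1 of 6 tested), the miR-30 family (1 of 11), the miR-181 family (1 of 8), the miR-135 family (1 of 4), the miR-17-92 and miR-106b-25 clusters (1 of 13), the miR-221 and miR-222 cluster (1 of 4), the synaptic and brain-enriched list (1 of 14), the oligodendrocyte list (1 of 4), and endothelium and mural cells (1 of 6). In the brain-enriched list the called member was miR-873-5p, 7 of 14 differences were above 0, and the median log2 fold change was -0.08. The neuronal miR-124-3p had -0.62 ± 0.24 (SE), adjusted p = 0.12. As a median of differences of mean log2 normalized counts, with no new fit, the list had 0.04 without I17M. The medians without 1 rat given below are of this kind and cannot be set directly against those of the fit.

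Markers of other cell types were read beside these. The choroid plexus and ependyma list summed to 1376 to 3423 CPM in the GH males and to 1903 to 2763 CPM in the SI males other than I20M, where it was 21003 CPM. None of its 9 miRNAs tested was called, and miR-141-3p and miR-429 were at 0 reads in all 10 males. The median of the list was 0.58 in the fit. Without I20M its median difference of mean log2 normalized counts was -0.03. The blood cell list summed to 1026 to 1398 CPM in the GH males and 1515 to 3123 CPM in the SI males, without overlap, nearly all of it miR-486, which had 0.85 ± 0.27 (SE), adjusted p = 0.071. The median of the blood cell list was 0.72 in the fit. As differences of mean log2 normalized counts it was 0.42 without I17M and 0.01 without I20M. The erythrocyte miRNA miR-451-5p was at 0 to 9.48 CPM in the GH males and at 0 to 27.6 CPM in the SI males. The microglia and neuroimmune list summed to 2174 to 2471 CPM in the GH males and 1389.8 to 2205 CPM in the SI males, with overlap and no call. Its median was 0.14 in the fit, and as differences of mean log2 normalized counts it was -0.05 without I20M. The muscle and liver list reached at most 48.0 CPM. The oligodendrocyte list summed to 3817 to 6143 CPM in the GH males and 5267 to 9313 CPM in the SI males, and overlapped. The part of these cell types in the differences above was not tested.

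At the level of single forms, 10290 isomiRs were tested and 1 was called (0.00972%), with 937 at an unadjusted p under 0.05. It was the full-length miR-877 with 2 A added at its 3' end. The reference and the called form are shown with the added bases in capitals.
miR-877, reference: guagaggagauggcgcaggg
miR-877, AA added: guagaggagauggcgcagggAA
This form had 87, 11, 30, 24, and 37 reads in the 5 GH males and was listed with 0 reads in the 5 SI males, at an adjusted p of 0.008. Forms with any tail of A only had 157 to 264 reads in the GH males and 101 to 324 in the SI males, and the reference form 15 to 159 and 69 to 548. The full-length form with a single A had 12 to 124 reads in the GH males and 0 to 114 in the SI males. The AA form was thus listed in no SI male, while miR-877 itself was read in each of them. Among the 12 isomiRs lowest in p, a form each of miR-490-3p, miR-129-5p, and miR-125a-5p, none of them called, was also listed with 0 reads in all 5 SI males. Forms absent from all SI males or from all GH males were not counted over the 10290 isomiRs, so how usual this pattern is was not tested. In the females the AA form had 7 to 132 reads in the GH rats and 27 to 99 in the SI rats. DESeq2 gave this isomiR no adjusted p, no isomiR was called with the I17 libraries exchanged, and 2 isomiRs were called without I19M or I20M.

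The isomiRs of the 20 called miRNAs moved mostly with their miRNA. Of 614 tested, 526 (85.7%) had the sign of the miRNA, and 143 (23.3%) had an unadjusted p under 0.05, against 9.11% of all isomiRs. They enter the sum that was called, so that this is a description. The most read form was the reference for 10 of the 20. For miR-22-3p the reference made up 76.7% of reads on average in GH and 63.6% in SI males, and for miR-434-3p 84.4% and 81.2%. For miR-338-5p the leading form, 81.5% and 83.5% of reads, lacks the last base of the reference, and for miR-873-5p it starts 1 base earlier, which shifts the seed.

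Within miRNAs, the share of reads that end before the reference 3' end could be compared for 167 miRNAs, each with at least 500 reads in every library. It differed for 6 (3.59%), being higher in SI males for miR-488-3p, miR-676, miR-99a-5p, miR-181a-5p, and miR-26a-5p and lower for miR-1224. The reference and the most read shortened form are shown for 4 of them, with the bases that the shorter one lacks in capitals.
miR-488-3p, reference: uugaaaggcuguuucuugguC
miR-488-3p, shortened: uugaaaggcuguuucuuggu
miR-181a-5p, reference: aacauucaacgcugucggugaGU
miR-181a-5p, shortened: aacauucaacgcugucgguga
miR-26a-5p, reference: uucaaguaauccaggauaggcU
miR-26a-5p, shortened: uucaaguaauccaggauaggc
miR-1224, reference: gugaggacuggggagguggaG
miR-1224, shortened: gugaggacuggggaggugga

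For miR-488-3p, from an intron of the astrotactin gene Astn1, the shortened share was 20.01, 31.2, 23.8, 23.2, and 18.6% in the 5 GH males and 41.9, 37.8, 48.0, 53.8, and 35.8% in the 5 SI males. The lowest SI male was above the highest GH male. The log2 odds differed by 1.34 ± 0.25 (SE), adjusted p = 0.008 (limma). For miR-181a-5p the share was 54.6, 58.6, 55.7, 59.98, and 61.0% in the 5 GH males and 65.8, 63.3, 64.4, 71.8, and 65.5% in the 5 SI males, a difference of 0.51 ± 0.13 (SE), adjusted p = 0.045. Its level was not called, with 7653 to 8425 CPM in the GH males and 4851.5 to 7419 CPM in the SI males, without overlap. The log2 fold change of the level was -0.26 ± 0.19 (SE), adjusted p = 0.46 (edgeR). The 21-base form shown made up 30.3 to 35.02% of reads in the GH males and 36.6 to 40.1% in the SI males.

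miR-26a-5p, the second most abundant miRNA in the GH males, had a shortened share of 5.62, 7.89, 7.60, 7.93, and 10.4% in the 5 GH males and 13.9, 12.8, 11.2, 11.1, and 12.3% in the 5 SI males, a difference of 0.72 ± 0.19 (SE), adjusted p = 0.045. The groups were separated by a narrow gap between G21M and I17M. For miR-1224 the share fell, from 26.1, 19.2, 25.5, 21.0, and 23.1% in the 5 GH males to 13.8, 11.3, 18.7, 14.6, and 9.66% in the 5 SI males, a difference of -0.95 ± 0.24 (SE), adjusted p = 0.038. miR-676 had 51.4 to 63.1% in GH and 66.9 to 77.9% in SI males, and miR-99a-5p, a miRNA of the let-7c cluster, 44.8 to 49.0% and 51.4 to 60.1%. Of the 6, 5 had higher shares, and the median difference over the 167 miRNAs was 0.04. Leaving out 1 male gave 2 to 10 such miRNAs, the most without I22M. It gave 2 without G16M, G18M, I15M, or I17M and 3 without G19M, G20M, I19M, or I20M, and 0 were called with the I17 libraries exchanged.

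The share of reads with A added at the 3' end differed for 1 of 167 miRNAs (0.599%), miR-125b-2-3p, the less abundant arm of a miR-125b hairpin. Its reference form and its most read A-tailed form, which lacks the last 2 templated bases, are shown with the last reference base and the added A in capitals.
miR-125b-2-3p, reference: acaagucaggcucuugggaccU
miR-125b-2-3p, A added: acaagucaggcucuugggacA
The share with A was 7.25, 8.06, 6.60, 8.14, and 6.16% in the 5 GH males and 13.96, 13.2, 14.2, 15.1, and 10.6% in the 5 SI males. Every SI male was above every GH male. The log2 odds differed by 0.99 ± 0.20 (SE), adjusted p = 0.016. The form shown made up 2.37 to 3.46% of its reads in the GH and 5.04 to 6.89% in the SI males. Its level had -0.52 ± 0.21 (SE), adjusted p = 0.13. The call was lost without G18M, G21M, I15M, I17M, or I22M.

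No miRNA was called for added U or for a changed 5' end by limma. The lowest p for U was that of miR-218a-5p, whose share was 4.58, 6.12, 4.57, 4.40, and 4.97% in the 5 GH males and 9.88, 6.98, 6.16, 8.59, and 9.36% in the 5 SI males, a difference of 0.77 ± 0.17 (SE), adjusted p = 0.052. Its A share lay the other way, with -0.49 ± 0.12 (SE), adjusted p = 0.093. miR-375-3p followed for U with 0.61 ± 0.16 (SE), adjusted p = 0.093. For the 5' end the lowest were miR-101b-3p, with a changed start in 49.1 to 56.9% of reads in GH and 30.7 to 45.8% in SI males and a difference of -0.88 ± 0.27 (SE), adjusted p = 0.33, and miR-298-5p with -3.44 ± 1.08 (SE), adjusted p = 0.33. At an unadjusted p under 0.05 there were 27 miRNAs for U and 8 for the 5' end. Calls for U appeared in some fits, 1 without G19M, 3 without I22M, and 5 with the I17 libraries exchanged.

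**Figure D5:**
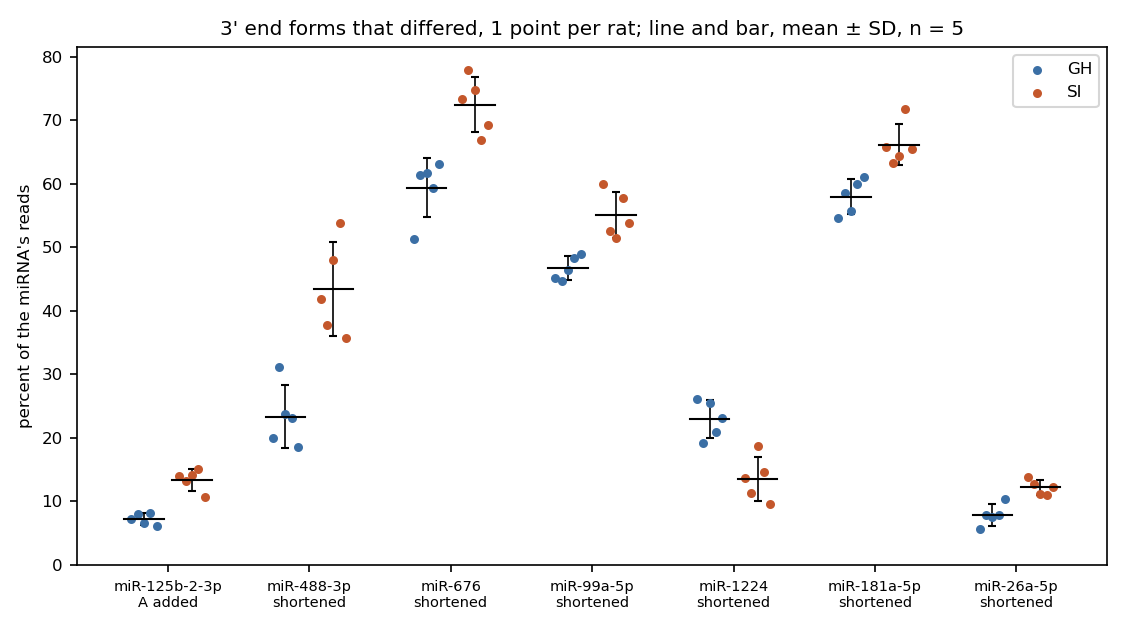
Percent of a miRNA's reads (vertical) that carry an added A (miR-125b-2-3p) or end before the reference 3' end (the other 6), with 1 point per rat and the mean ± SD as line and bar. SI males (orange) lie above GH males (blue) in all but miR-1224, where they lie below.

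Over the whole library, none of 8 classes of isomiR passed an exact permutation test adjusted over the classes. Reads in the reference form made up 46.8, 45.4, 45.6, 45.6, and 44.9% in the 5 GH males and 46.8, 47.3, 46.2, 47.3, and 47.4% in the 5 SI males, a difference of 1.35 percentage points (p = 0.016, adjusted p = 0.063, exact, two-sided). Reads with a changed 5' end made up 5.31, 5.97, 6.12, 6.30, and 6.54% in the 5 GH males and 5.20, 4.64, 5.52, 4.84, and 4.84% in the 5 SI males, a difference of -1.04 points with the same p values. The ranges of the groups overlap in both classes. Without I22M both passed, at 1.55 and -1.17 points, as did templated 3' extension at -1.18 points (adjusted p = 0.042 for each, exact permutation test). The smallest p that 5 against 5 rats allow is 0.0079. The same weight was also given to each of the 167 miRNAs with at least 500 reads in every library. The 5' difference was then -0.133 points (p = 0.25, exact permutation test). The reference share differed by -0.673 points (p = 0.024, adjusted p = 0.19, exact permutation test). The sign of the reference difference thus depends on the weights and the set of miRNAs, which changed together.

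Many miRNAs enter these 2 differences, and those with the largest parts are named here. miR-124-3p, with a changed 5' end in 44.5% of its reads in GH and 45.4% in SI males, made up 2.27% of all reads in GH and 1.34% in SI males and gave -0.406 of the points. miR-9a-3p gave -0.300 points, with a changed start in 34.2% and 34.1% of its reads. In the reference class, let-7a-5p gave 0.891, let-7c-5p 0.857, let-7f-5p 0.846, let-7g-5p 0.497, and miR-434-3p 0.436 points, and miR-26a-5p gave -1.05. Within the let-7 miRNAs the reference share was nearly the same in both groups, 64.1% and 63.3% for let-7a-5p. The shares of the other 6 classes differed by 0.032 to 0.844 points in size, with adjusted p of 0.32 or more.

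The same contrast was set against that in females for the 20 miRNAs called in males. In the females 18 of the 20 had the same direction, against 331 of 500 (66.2%) of all miRNAs, and 1 was called there, miR-22-3p, with a log2 fold change of -1.56, adjusted p = 0.0052. For 6 of the 20 the housing effects of the sexes differed at an unadjusted p under 0.05, against 36 of 500 (7.2%) of all miRNAs. The 20 were selected by the difference in males, which is a part of this contrast, so that these 2 shares cannot be compared. The difference between the sexes was itself tested for all 500 miRNAs, and 2 were called (0.400%). miR-34a-5p was one of them. It was read at 60.2 ± 27.4 CPM in GH and 173 ± 28.3 CPM in SI males and at 108 ± 36.3 CPM in GH and 78.3 ± 23.0 CPM in SI females (mean ± SD, n = 5). The change in males exceeded that in females by 1.99 ± 0.43 (SE) on the log2 scale, adjusted p = 0.041. The second, miR-30b-5p, was read at 187, 139, 123, 176, and 180 CPM in GH and 210, 344, 330, 249, and 220 CPM in SI males, and at 272.7 ± 122 CPM in GH and 141 ± 28.4 CPM in SI females. It lay higher in SI males and lower in SI females, though neither change passed the test alone. The difference between the sexes was 1.69 ± 0.38 (SE), adjusted p = 0.041. Without G20M 1 of these 2 remained past the threshold, without any other male neither did, and with the I17 libraries exchanged there were 0. Both remained without G12F, G13F, or G15F, miR-34a-5p alone without I17F, and neither without G16F, G17F, I10F, I12F, I14F, or I16F.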

How the data were processed

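Small RNA libraries were made from 215 ng of adBNST RNA per rat with 22 PCR cycles (NEXTflex Small RNA-Seq kit). The deposited files list, per the authors' processing (cutadapt, seqbuster against miRBase 21, bcbio-nextgen), each sequence with its miRNA, its isomiR code, and its raw count of reads. Sequences with 1 read are not listed. Versions of the authors' tools are not given in the sources used here.

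Counts were summed per miRNA, seed, arm, and isomiR. A read that matched several miRNAs counted for each of them, but once within a seed family and once in the class shares over the whole library. Features that reached 10 counts in 5 or more libraries were tested with edgeR 4.0.16 (TMM, quasi-likelihood, R 4.3.3) in a fit of 4 groups over 20 libraries, and with limma 3.58.1 for arm ratios (pseudocount 1) and form shares (pseudocount 0.5, at least 500 reads in every library). Adjusted p is that of Benjamini and Hochberg over all features tested, with calls under 0.05. Class shares had an exact two-sided permutation test, adjusted over 8 classes. The statistics were tested on simulated data with known changes, in which rats were independent and no library stood apart. Shared cages and single deviating rats are thus not covered by it. The text names every called miRNA, arm, isomiR, and share, the members of the lists that bear on them, and, for arms, U, and 5' ends, those lowest in p.

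Housing groups, sex, and rats were taken from the sample titles. The members, lists, and tests were chosen with earlier results of these data known. That the samples of a group are separate rats follows from their titles, and shared litters or cages would make the p-values too small. Reads carry no molecular identifiers, so that counts are not independent molecules. Alternatives were DESeq2 1.42.0, limma voom, other filters and pseudocounts, a GC offset, reads of a single miRNA, reads without mismatch, the males alone, the I17 libraries exchanged, a replicate block, and leaving out each rat.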

Additional observations from a re-analysis of the deposited data

Results flagged for a closer look

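Of 76 sets of 5 values tested for a sample far from the others, 4 had one, where chance gives about 1 in 20. On the log2 scale of normalized counts, miR-181c-5p was lowest in I17M among the SI males, at 6.76 with the next rat at 8.40. miR-434-5p was lowest in G21M among the GH males, at 11.36 with the next at 11.68. miR-143-3p was lowest in G20M among the GH males, at 15.86 with the next at 16.29. The log2 ratio of 5p to 3p reads of miR-543 was lowest in I17M, at -14.02 with the next at -9.75, and there the 5p arm was listed with 0 reads.

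The housing effect differed between males and females for miR-34a-5p, by 1.99 on the log2 scale, and for miR-30b-5p, by 1.69 (edgeR, adjusted p = 0.041 for both).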

How the results depend on the processing

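No called difference changed direction under any alternative run. Among class shares, none of which was called, the reference form turned to -0.673 points with equal weight for each of the 167 miRNAs. The A class ranged from -0.107 to 0.146 points without 1 male. The number of miRNAs called, 20, became 89 with only the 10 males, 87 with limma voom and quality weights, 51 with DESeq2, 45 with a GC offset, 40 with at least 10 counts in every library, 11 with the I17 libraries exchanged, and 86 with only the males without I17M, the last chosen after seeing the data. All 20 were called again under the first 5 of these. Leaving out 1 rat of either sex gave 7 to 73. Of seed families, 16 were called, and 66 with only the males, 38 with DESeq2, 29 with the count minimum in every library, 10 with I17 exchanged, and 4 to 25 without 1 male. Of isomiRs, 1 was called, and 39 with only the males, 152 with DESeq2 (which gave the 1 no adjusted p), 34 with the count minimum in every library (the 1 not tested there), 6 with reads of a single miRNA, 0 with I17 exchanged, and 1 to 2 without 1 male. Of arm ratios, 3 were called, and 7 with a pseudocount of 5, 16 with only the males (2 of the 3 among them), 0 with I17 exchanged, and 0 to 3 without 1 male. For the A share 1 was called, and 3 with only the males, 0 with I17 exchanged, and 0 to 1 without 1 male. For the U share 0 were called, and 5 with I17 exchanged and 0 to 3 without 1 male. For the shortened share 6 were called, and 13 with only the males, 0 with I17 exchanged, and 2 to 10 without 1 male. The difference between the sexes, 2 calls, gave 4 with DESeq2, 0 with I17 exchanged, and 0 to 2 without 1 rat, where leaving out females was chosen after seeing the data. Over the fits without 1 male the class shares ranged from 1.17 to 1.63 points for the reference form, from -1.23 to -0.919 for the 5' end, and from -1.18 to -0.420 for 3' extension. The cause of these changes was not tested.

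Males of both groups share the animal numbers 19 and 20 alone, and their deviations correlated at -0.095 and -0.015, so that the numbers were not taken as pairs. A replicate block over those 4 males called 2 miRNAs, 4 families, 0 isomiRs, 0 arm ratios, 0 A shares, and 1 shortened share. The same 4 males with no replicate block gave 1, 1, 0, 0, 0, and 1, and 1 for the U share. None of the 20 miRNAs, 16 families, or 6 shortened shares was among the calls of either fit. The median of all log2 fold changes was -0.01 as reported, and among the alternatives it ranged from -0.10 (voom) to 0.07 (GC offset). Low read numbers limit the 5p arm of miR-543 and the tailed miR-877.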
